A study of Homo sapiens with 12 samples.

Results

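The NRF2 antioxidant and aldo-keto reductase genes described here are 10 of the 59424 genes measured in 2 human prostate cancer cell lines. They were chosen by name: GCLC and GCLM, which make glutathione, NQO1, TXNRD1, SRXN1 and HMOX1, which handle quinones, thioredoxin, oxidised peroxiredoxins and heme, and the aldo-keto reductases AKR1C1, AKR1C2, AKR1C3 and AKR1B10. All 10 were present by Ensembl identifier in the table of each cell line. NRF2, encoded by NFE2L2, is a transcription factor that KEAP1 holds in the cytoplasm and passes to a CUL3 ubiquitin ligase for degradation. When electrophiles or oxidants modify KEAP1, NRF2 accumulates, pairs with a small MAF protein and binds antioxidant response elements in front of detoxification genes, where the repressor BACH1 competes with it. Aldo-keto reductases use NADPH to reduce aldehydes, ketones and steroids, and AKR1C3 is known in prostate cancer for converting weak androgens into potent ones.

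The experiment asks how gene expression responds to GALNT7, a Golgi enzyme of O-glycan synthesis. In CWR22Rv1 cells, a line grown from a prostate tumour xenograft, a control shRNA (shControl) was compared with an shRNA that depletes GALNT7 (GALNT7 KD). In DU145 cells, a line from a brain metastasis of prostate cancer, a lentiviral control open reading frame (OE control) was compared with GALNT7 overexpression (GALNT7 OE). Stranded libraries of polyadenylated RNA were sequenced from 3 biological replicates in each of these 4 groups. All 4 groups were stable lines made by lentiviral transduction, and the sources used here do not say how many independent transductions stood behind the 3 replicates of a group. The p-values below therefore measure the spread between these libraries. The 2 cell lines were normalised in separate tables and carried different manipulations, so each comparison was fitted by itself and a difference between the 2 comparisons was not tested.

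Recovered reads numbered 18364512 to 22264533 per CWR22Rv1 library and 21628718 to 24356910 per DU145 library. GALNT7 itself had a log2 fold change of -1.11 in GALNT7 KD (limma adjusted p = 0.0051) and of 1.18 in GALNT7 OE (limma adjusted p = 8.0e-05), with no overlap between the libraries of the compared groups. The 4 epithelial markers EPCAM, KRT8, KRT18 and CDH1 summed to between 20827 and 25908 normalised counts in every library, but single markers changed. In GALNT7 KD, EPCAM and KRT18 were lower (log2 fold changes -0.71 and -0.35, limma adjusted p = 0.013 and 0.024). Both calls were lost without shControl replicate 1 or 2. In GALNT7 OE, EPCAM was higher and CDH1 lower (log2 fold changes 0.62 and -0.58, limma adjusted p = 0.0016 and 0.0092). The 4 non-epithelial markers PTPRC, PECAM1, COL1A1 and ACTA2 summed to 61.9 to 106 in CWR22Rv1 libraries. In DU145 libraries they summed to 330 to 479 in the OE control and to 99.8 to 187 in GALNT7 OE, where COL1A1 was lower (log2 fold change -2.01, limma adjusted p = 0.0059). The part of either marker set in the results below was not tested.

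After GALNT7 knockdown, all 6 of the members that passed the filter on low values were higher than in shControl, HMOX1 and NQO1 most of all, while the 4 aldo-keto reductases were too close to 0 to be tested. After GALNT7 overexpression, GCLM, NQO1 and SRXN1 were higher, GCLC, TXNRD1, AKR1C1, AKR1C2 and AKR1C3 were lower, and HMOX1 and AKR1B10 did not pass the test. GCLM, NQO1 and SRXN1 were thus higher in both comparisons, whereas GCLC and TXNRD1 went up in knockdown and down in overexpression. Of the knockdown calls, those of NQO1, SRXN1 and HMOX1 were kept with every library left out in turn. Those of GCLC, GCLM and TXNRD1 were each lost without some single libraries, and the overexpression call of TXNRD1 was lost under quantile normalisation. A gene counted as changed when limma, run on log2(normalised count + 1) over all genes whose mean normalised count in a cell line reached 5, gave an adjusted p under 0.05. In knockdown 9.06% of 17906 genes were changed (5.28% higher and 3.79% lower), and the libraries of the compared groups did not overlap for 32.5% of genes and for all 6 members tested. In overexpression 43.5% of 18705 genes were changed (22.9% higher and 20.5% lower), against 8 of the 10 members, and the groups did not overlap for 55.3% of genes and for the same 8 members. Rescaling the libraries to a common 75th percentile turned the overexpression split of all genes from 4290 higher and 3842 lower into 3380 higher and 4736 lower, and the 8 members kept their direction and their call. Of the 16124 genes tested in both comparisons, 1.72% were higher in both and 1.58% went up in knockdown and down in overexpression. The median log2 fold change of the 6 members tested in knockdown was 0.45, beside -0.0063 for all genes, and that of the 10 members in overexpression was -0.19, beside -0.011. In cultures measured in bulk, fewer cells with a transcript and less of it per cell cannot be told apart.

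**Figure D1:**
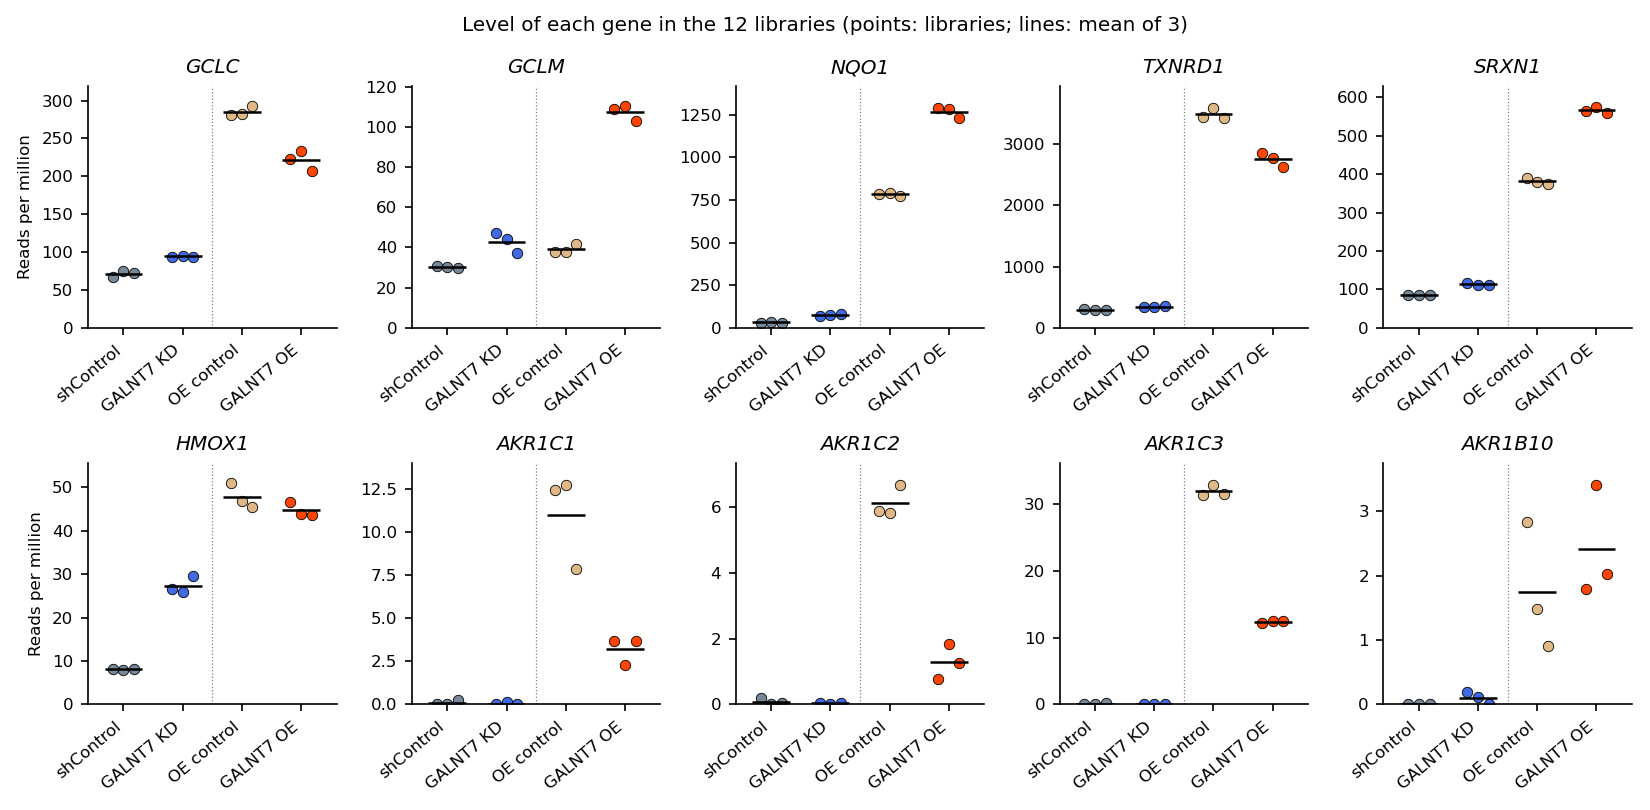
Level of each of the 10 genes in reads per 1000000 gene reads of the library (RPM; vertical axis, from 0) in the 12 libraries, by group (horizontal axis); points are libraries and lines are the mean of 3. The 6 antioxidant genes are higher in GALNT7 KD than in shControl in every library, and the AKR1C genes are near 0 in CWR22Rv1 cells and lower in GALNT7 OE than in the OE control in DU145 cells.

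**Figure D2:**
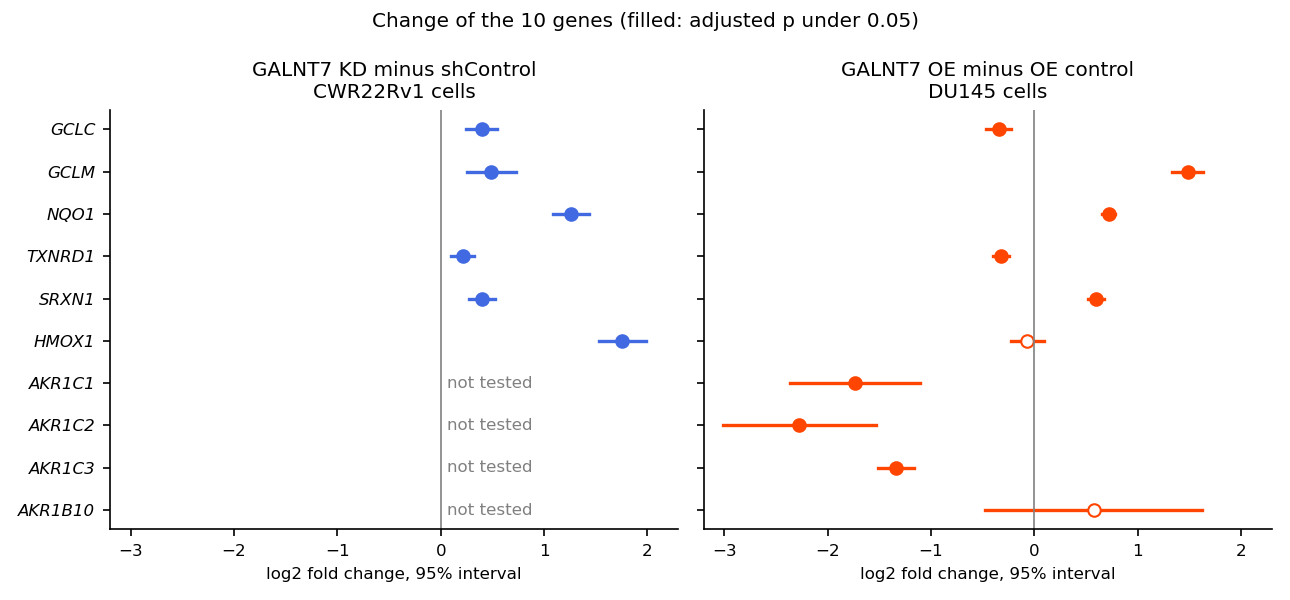
Log2 fold change (horizontal axis) of each gene with its 95% interval from limma, for GALNT7 KD against shControl (left) and GALNT7 OE against the OE control (right). Filled points passed an adjusted p of 0.05. All 6 genes tested in knockdown lie to the right of 0, from 0.21 for TXNRD1 to 1.76 for HMOX1, and in overexpression the points run from -2.27 for AKR1C2 to 1.49 for GCLM.

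Glutamate-cysteine ligase carries out the rate-limiting step of glutathione synthesis and is built from a catalytic subunit, GCLC, and a modifier subunit, GCLM, which makes the catalytic subunit more efficient. GCLC lies on the minus strand at chr6:53497341-53616970 and GCLM on the minus strand at chr1:93885205-93909456 (GRCh38, GENCODE 29). Another annotated gene, AL033397.1, overlaps GCLC on the same strand, so reads there could belong to either. The GCLM promoter is shown because it holds the letters of an antioxidant response element core, TGACNNNGC, read on either strand, and because GCLM was the member with the largest rise in overexpression. The stretch below runs from 120 bases before the RefSeq start of GCLM, on the minus strand at chr1:93909456-93909550 of GRCh38.p14, with the match in capitals. The first base of the match lies 34 bases before the start.

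GCLM promoter: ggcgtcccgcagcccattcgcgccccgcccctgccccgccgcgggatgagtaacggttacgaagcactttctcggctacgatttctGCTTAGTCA

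Both subunits rose in knockdown. GCLC had normalised counts of 1325, 1486 and 1417 in shControl and of 1853, 1870 and 1836 in GALNT7 KD. GCLM had 607, 600.3 and 584 in shControl and 930.1, 864 and 736 in GALNT7 KD. For neither gene did the groups overlap, and the spread was wider for GCLM, whose lowest GALNT7 KD library was replicate 3. The log2 fold change was 0.40 for GCLC (standard error 0.0624, limma adjusted p = 0.014) and 0.49 for GCLM (standard error 0.100, limma adjusted p = 0.031). The GCLC call was lost without shControl replicate 1, without shControl replicate 3 or without GALNT7 KD replicate 1, with limma adjusted p from 0.054 to 0.063. The GCLM call was kept only without GALNT7 KD replicate 3, and the other 5 libraries left out in turn gave limma adjusted p from 0.083 to 0.10.

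In overexpression the subunits moved in opposite directions. GCLC fell from 6233, 6260 and 6501 normalised counts in the OE control to 5018, 5254 and 4704 in GALNT7 OE. GCLM rose from 838, 839 and 923 to 2450 (replicate 1), 2489 (replicate 2) and 2339 (replicate 3). Every GALNT7 OE library was below every control library for GCLC and above it for GCLM. The log2 fold change was -0.34 for GCLC (standard error 0.0507, limma adjusted p = 0.0017) and 1.49 for GCLM (standard error 0.0633, limma adjusted p = 8.6e-06), the latter a 2.80-fold rise.

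The ratio of GCLC to GCLM, which was chosen after these values were seen, does not depend on how a library was scaled. It was 7.44, 7.46 and 7.04 in the OE control and 2.05, 2.11 and 2.01 in GALNT7 OE, a mean of 7.32 ± 0.236 against 2.06 ± 0.0503 (SD, n = 3). The groups did not overlap, and the exact permutation p (two-sided) was 0.1, the smallest that 3 libraries against 3 allow. In CWR22Rv1 cells the ratio was 2.18, 2.48 and 2.43 in shControl and 1.99, 2.16 and 2.49 in GALNT7 KD, with overlapping groups and an exact permutation p of 0.5. The OE control thus stood apart from the other 3 groups in this ratio, across tables that were scaled separately.

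**Figure D3:**
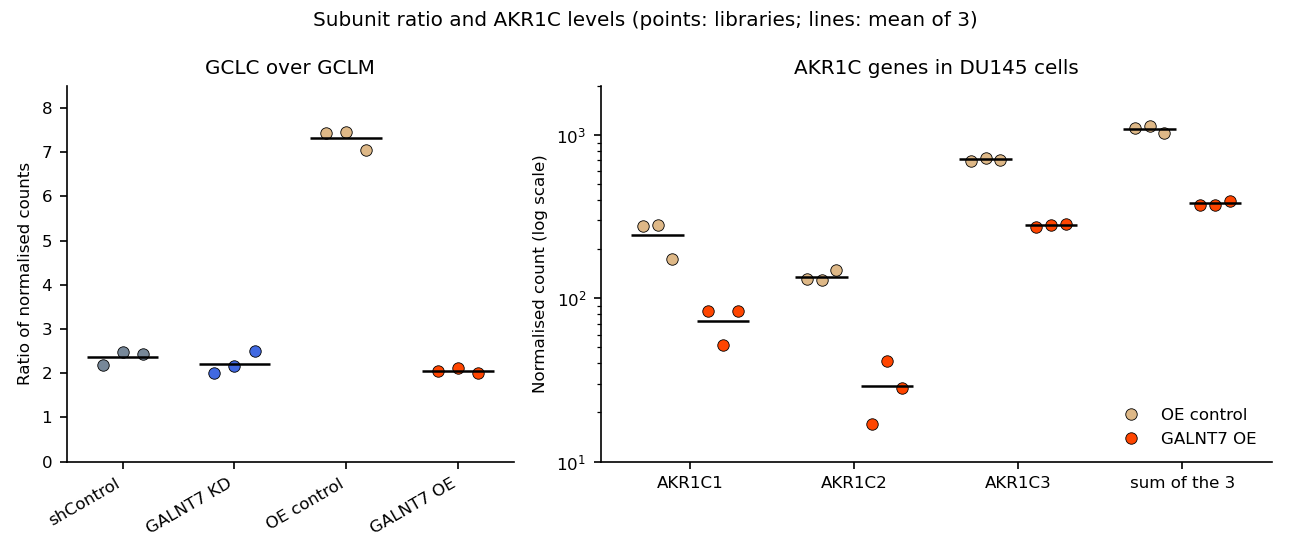
Left, ratio of the normalised counts of GCLC to GCLM in each library, by group, on an axis from 0. Right, normalised counts of AKR1C1, AKR1C2, AKR1C3 and their sum in DU145 libraries, on a log axis; points are libraries and lines are the mean of 3. The ratio lies between 7.04 and 7.46 in the OE control and between 1.99 and 2.49 in the other groups, and each AKR1C gene lies lower in GALNT7 OE than in the OE control without overlap.

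NQO1 reduces quinones to hydroquinones by a 2-electron step and is widely used as a readout of NRF2. It lies on the minus strand at chr16:69706996-69726951. NQO1 had normalised counts of 612, 640.1 and 604 in shControl and of 1420.2, 1443 and 1589 in GALNT7 KD, so that the lowest knockdown library was over every control library. This was a 2.40-fold rise (limma adjusted p = 4.8e-04), with a log2 fold change of 1.26 (standard error 0.0727). In DU145 cells NQO1 was far more abundant and rose again, from 17443, 17486 and 17237 in the OE control to 28953, 28853 and 28050 in GALNT7 OE. That was a 1.65-fold rise without overlap (log2 fold change 0.72, standard error 0.0265, limma adjusted p = 5.4e-06).

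SRXN1, sulfiredoxin, restores peroxiredoxins that have been over-oxidised and lies on the minus strand at chr20:646615-653370. Its normalised counts were 1661, 1704 and 1671 in shControl and 2297, 2161 and 2194 in GALNT7 KD. In DU145 cells they were 8642, 8386 and 8317 in the OE control and 12679, 12933 and 12738 in GALNT7 OE. SRXN1 was higher without overlap in both lines, by a log2 fold change of 0.40 in knockdown (standard error 0.0525, limma adjusted p = 0.0080) and of 0.60 in overexpression (standard error 0.0319, limma adjusted p = 2.1e-05). Another gene, AL121758.1, is annotated over SRXN1 on the same strand, so reads there could belong to either.

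HMOX1, heme oxygenase 1, breaks heme down into biliverdin, iron and carbon monoxide, and is held down by BACH1. It lies on the plus strand at chr22:35380361-35394214. It showed the largest change of the 6 members tested in knockdown, with 161, 155 and 159 normalised counts in shControl and 526, 507 and 581 in GALNT7 KD. HMOX1 thus rose 3.40-fold without overlap (limma adjusted p = 4.4e-04), with a log2 fold change of 1.76 (standard error 0.0963). In DU145 cells HMOX1 had 1132, 1039 and 1008 normalised counts in the OE control and 1046, 989 and 995 in GALNT7 OE, and the groups overlapped. The log2 fold change was -0.07 with a 95% interval from -0.23 to 0.10 (limma adjusted p = 0.46), which leaves out a change of the size seen in knockdown.

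TXNRD1, cytosolic thioredoxin reductase, keeps thioredoxin reduced at the cost of NADPH, and was the most abundant member per length in every group. It lies on the plus strand at chr12:104215779-104350305, and EID3 and RPL18AP3 are annotated within it on the same strand. Its promoters are shown because they hold the same letters, TGACNNNGC on either strand, as that of GCLM. The first stretch ends at the start base of the upstream RefSeq start (plus strand, chr12:104215659-104215779 of GRCh38.p14), with matches that begin 99 and 8 bases before it. The second ends with the match 102 bases before a downstream start (plus strand, chr12:104286912-104286938), and capitals mark the matches.

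TXNRD1 upstream promoter: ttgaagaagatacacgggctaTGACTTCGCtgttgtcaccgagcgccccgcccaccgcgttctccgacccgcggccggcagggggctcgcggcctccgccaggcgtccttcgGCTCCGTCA
TXNRD1 downstream promoter: cacgaggagtggatttctGCTTTGTCA

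RefSeq promoters, each 300 bases long, were found for 8 of the 10 members (10 promoters, with HMOX1 and AKR1B10 not matched). The letters TGACNNNGC stood in 3 of these 10 promoters, those of GCLM and TXNRD1, and in 13.3% of all 35116 promoters. Bases outside these windows were not searched, so a gene without a match here need not lack such an element. The AP-1 letters TGANTCA, searched on both strands and able to overlap the first motif, stood in 0 of the 10 and in 7.71% of all promoters. GCLM and TXNRD1, which share the letters, went in opposite directions in overexpression.

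TXNRD1 had normalised counts of 6107, 5771 and 5784 in shControl and of 6586, 6792 and 7112 in GALNT7 KD, without overlap. The log2 fold change was 0.21 (standard error 0.0468, limma adjusted p = 0.038), the smallest among the 6 members tested. This call was lost whichever of the 6 libraries was left out, with limma adjusted p from 0.069 to 0.12. The genes of chromosome 12, where TXNRD1 lies, had a median log2 fold change of -0.28 in knockdown over 922 genes, and TXNRD1 was 0.49 above that median and 0.22 above the median of all genes. In DU145 cells TXNRD1 fell from 76573, 79471 and 76040 normalised counts to 63986, 62260 and 59790, again without overlap (log2 fold change -0.32, standard error 0.0320, limma adjusted p = 3.0e-04). The call in overexpression was lost under quantile normalisation, where the log2 fold change was -0.11 (limma adjusted p = 0.46). The chromosome 12 median was 0.069 over 940 genes in overexpression, and TXNRD1 was 0.39 below it.

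AKR1C1, AKR1C2 and AKR1C3 stand side by side on chromosome 10, at chr10:4963253-4983283 (plus strand), chr10:4987400-5018031 (minus strand) and chr10:5035354-5107686 (plus strand). AKR1C1 inactivates progesterone, AKR1C2 inactivates dihydrotestosterone, and AKR1C3 reduces androstenedione to testosterone. Their coding sequences, each 969 bases in GENCODE 29, are near copies: AKR1C1 and AKR1C2 differ at 19 bases (98.0% identity), AKR1C1 and AKR1C3 at 83 (91.4%), and AKR1C2 and AKR1C3 at 87 (91.0%). Of the stretches of 31 bases in AKR1C1, 66.8% also occur in AKR1C2. The second coding exon is shown as a stretch that holds bases separating the 3 genes, and it need not stand for the whole coding sequence. Capitals mark the 17 of its 168 bases that are not the same in all 3. The exons lie at chr10:4965914-4966081 (AKR1C1, plus strand), chr10:5001514-5001681 (AKR1C2, minus strand) and chr10:5096410-5096577 (AKR1C3, plus strand), each written in the sense direction.

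AKR1C1: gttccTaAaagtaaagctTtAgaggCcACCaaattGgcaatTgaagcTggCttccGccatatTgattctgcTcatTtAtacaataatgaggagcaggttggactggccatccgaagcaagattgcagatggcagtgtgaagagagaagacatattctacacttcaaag
AKR1C2: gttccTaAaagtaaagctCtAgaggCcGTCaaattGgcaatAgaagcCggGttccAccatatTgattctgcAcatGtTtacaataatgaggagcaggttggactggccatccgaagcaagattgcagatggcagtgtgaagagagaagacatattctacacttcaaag
AKR1C3: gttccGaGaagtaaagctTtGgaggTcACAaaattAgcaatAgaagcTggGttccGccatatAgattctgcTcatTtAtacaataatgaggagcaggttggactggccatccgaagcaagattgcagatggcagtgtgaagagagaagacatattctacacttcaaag

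Since a read from a shared stretch can be assigned to any of the 3, their separate values are uncertain and their sum was also tested. In DU145 cells the sum fell from 1106, 1139 and 1025 normalised counts in the OE control to 374 (replicate 1), 374 (replicate 2) and 398 (replicate 3) in GALNT7 OE. The log2 fold change of the sum was -1.51 (standard error 0.0743, limma adjusted p = 1.5e-05), which left 0.350 of the control level. AKR1C3 made up most of it, with 699, 728 and 701 normalised counts in the OE control and 274, 281 and 285 in GALNT7 OE (log2 fold change -1.34, standard error 0.0722, limma adjusted p = 2.2e-05).

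AKR1C1 had 277, 282 and 175 normalised counts in the OE control and 83.2, 51.7 and 83.9 in GALNT7 OE. AKR1C2 had 131, 129 and 148 in the OE control and 17.0, 41.6 and 28.3 in GALNT7 OE. The replicates of these genes scattered more than those of AKR1C3, and in GALNT7 OE replicate 2 was the lowest library for AKR1C1 and the highest for AKR1C2. Both were still lower without overlap, with a log2 fold change of -1.73 for AKR1C1 (standard error 0.265, limma adjusted p = 0.0020) and of -2.27 for AKR1C2 (standard error 0.311, limma adjusted p = 0.0012). The share of AKR1C3 in the sum was 65.2% ± 2.85 in the OE control and 73.3% ± 1.65 in GALNT7 OE (SD, n = 3), without overlap (exact permutation p = 0.1, two-sided and the smallest possible). The share of AKR1C2 went from 12.5% ± 1.69 to 7.60% ± 3.30 (SD, n = 3; exact permutation p = 0.1), and that of AKR1C1 overlapped between the groups, at 22.3% ± 4.50 and 19.1% ± 4.57 (SD, n = 3; exact permutation p = 0.5).

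AKR1B10, which reduces retinal and lipid aldehydes, lies on the plus strand at chr7:134527592-134541408. It had 63.0, 32.7 and 20.2 normalised counts in the OE control and 40.1, 76.7 and 46.2 in GALNT7 OE. The replicates spread over more than the difference between the means, and the log2 fold change was 0.57 with a 95% interval from -0.48 to 1.62 (limma adjusted p = 0.34). AKR1B15, a close relative, shares 33.1% of the stretches of 31 coding bases of AKR1B10, so that some reads could have been placed in either gene.

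In CWR22Rv1 cells the aldo-keto reductases were barely detected. AKR1C1, AKR1C2 and AKR1C3 together had 6, 2 and 9 reads in shControl and 1, 4 and 2 reads in GALNT7 KD. AKR1B10 had 0 of 64910344 reads in shControl, which allows up to 0.0462 RPM, and 4, 2 and 0 reads in GALNT7 KD. These limits cover counting error only. None of the 4 reached the mean normalised count of 5. Fitted without that filter, the 95% intervals of their log2 fold changes all held 0 (AKR1C1 -2.08 to 1.52, AKR1C2 -1.84 to 1.02, AKR1C3 -1.93 to 0.42 and AKR1B10 -0.04 to 2.66), with limma adjusted p from 0.31 to 0.88. A fall or a small change in knockdown was therefore not detectable at this depth.

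Per length of transcript, TXNRD1 came first in all 4 groups. The length was that of a single annotated transcript per gene, 6705 bases for AKR1C1, 3756 for AKR1C2 and 1807 for AKR1C3. The coding sequences of these AKR1C genes are equally long, so their place in the order per kilobase depends on the transcript chosen. In normalised counts AKR1C1 was above AKR1C2 in every DU145 library. In shControl the mean normalised count per kilobase was 1498 for TXNRD1, 622 for SRXN1, 369.7 for GCLC, 213 for NQO1, 123 for GCLM and 86.8 for HMOX1, and no neighbours in this order overlapped. In GALNT7 KD NQO1 and GCLC overlapped, at 509.7 and 486, and HMOX1 at 295 stood above GCLM at 174. In the OE control the order was TXNRD1 at 19685, NQO1 at 5971, SRXN1 at 3131, GCLC at 1660.4, HMOX1 at 582, AKR1C3 at 393 and GCLM at 178, and AKR1C1, AKR1C2 and AKR1B10 lay between 24.3 and 36.5 and overlapped with their neighbours. In GALNT7 OE GCLM, at 499.6 per kilobase, stood above AKR1C3 at 155, and AKR1C1 and AKR1C2 overlapped at 10.9 and 7.72.

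The 2 control groups are set side by side without a test, since they are different cell lines in separate tables. In RPM of each library's own total, NQO1 was at 31.4 ± 0.972 in shControl and 784 ± 7.07 in the OE control (SD, n = 3). TXNRD1 was at 299 ± 9.25 and 3488 ± 91.7, and HMOX1 at 8.03 ± 0.148 and 47.8 ± 2.85 (SD, n = 3). GCLM was the closest of the 6 antioxidant members, at 30.3 ± 0.563 and 39.1 ± 2.18 (SD, n = 3). The AKR1C sum was at 0.264 ± 0.165 in shControl and 49.1 ± 2.73 in the OE control (SD, n = 3).

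Few regulators of the pathway were called in knockdown, 6.67% of them beside 9.06% of all genes. The groups did not overlap for 5 of the 15, beside 32.5% of all genes. Of 15 tested with limma, 1 was higher and 0 were lower (1 lower at an unadjusted p under 0.05, 0 with edgeR and 1, KEAP1, with DESeq2). The higher gene was SQSTM1, which encodes the p62 receptor that draws KEAP1 into autophagy, at 2194, 2073 and 2083 normalised counts in shControl and 3018, 2657 and 3321 in GALNT7 KD (log2 fold change 0.50, limma adjusted p = 0.019). The SQSTM1 call was lost when any 1 of the shControl libraries, or GALNT7 KD replicate 1, was left out. NFE2L2 itself had a log2 fold change of -0.15 with a 95% interval from -0.32 to 0.03 (limma adjusted p = 0.26), KEAP1 of -0.23 with an interval from -0.38 to -0.07 (limma adjusted p = 0.080), and MAFG, a partner of NRF2, of -0.06 with an interval from -0.32 to 0.19 (limma adjusted p = 0.77). BACH1 had 331, 320.1 and 262 normalised counts in shControl and 250.4, 1099 and 273 in GALNT7 KD, so that replicate 2 alone stood high. Its log2 fold change was 0.48 with a wide 95% interval, from -0.81 to 1.76 (limma adjusted p = 0.63). Without GALNT7 KD replicate 2 the BACH1 log2 fold change was -0.21.

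In overexpression 2 of the 15 regulators were higher and 6 were lower, 53.3% of them beside 43.5% of all genes, a share near that of all genes. BACH1 fell from 3040.0, 2762 and 2438 normalised counts to 1171, 1707 and 1317 (log2 fold change -0.99, limma adjusted p = 0.0019), and its relative BACH2 had a log2 fold change of -1.40 (limma adjusted p = 0.0036). The small MAF genes MAFK and MAFF were lower, with log2 fold changes of -0.98 and -0.72 (limma adjusted p = 0.0027 and 5.5e-04), while MAFG was at 0.01 with an interval from -0.12 to 0.14 (limma adjusted p = 0.92). SQSTM1, the regulator higher in knockdown, was lower here (log2 fold change -0.29, limma adjusted p = 0.012). NFE2L2 and KEAP1 both had a log2 fold change of -0.07, with intervals from -0.20 to 0.07 and from -0.26 to 0.12 (limma adjusted p = 0.38 and 0.53). NFE2L2 passed the test only after rescaling to the 75th percentile, with a log2 fold change of -0.17 (limma adjusted p = 0.047).

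Of 44 other genes known as NRF2 targets, 40 were tested in knockdown, where 15 were higher and 1 was lower, and 41 in overexpression, where 24 were higher and 7 were lower. Their median log2 fold change was 0.26 in knockdown and 0.36 in overexpression, beside -0.0063 and -0.011 for all genes. GGT1, PRDX1, BLVRB and FTH1 were the 4 of the 15 higher in knockdown that kept their call with every library left out in turn, and the count of 15 fell to 6 without shControl replicate 1 or GALNT7 KD replicate 1 and lay at up to 13 without another library. In overexpression 22 of the 24 higher and 6 of the 7 lower did so. Of the 40 targets tested in both comparisons, 7 (17.5%) were higher in both, beside 1.72% of all genes, and 4 (10%; ABCC4, BLVRA, FTH1 and GGT1) went up in knockdown and down in overexpression, beside 1.58%. These counts rested on calls that depended on single libraries. The 7 became 2 without shControl replicate 1 or GALNT7 KD replicate 1 and 4 without shControl replicate 3 or GALNT7 KD replicate 2, and the 4 became 2 without shControl replicate 3 or GALNT7 KD replicate 1. PRDX1 among the 7, and FTH1 and GGT1 among the 4, stayed in their class whichever of the 12 libraries was left out.

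Around GCLC and GCLM, 4 of 13 genes of glutathione and thioredoxin metabolism were higher in knockdown and 0 lower with limma (1 lower at an unadjusted p under 0.05, 0 with edgeR and 1 with DESeq2), led by GGT1, which breaks down extracellular glutathione (log2 fold change 0.93), and GSTM3, a glutathione transferase (0.84; limma adjusted p = 0.0027 and 0.022). The 4 were 30.8% of the list, beside 9.06% of all genes, and without GALNT7 KD replicate 1 the count of 4 was 2. In overexpression 7 of the 13 were higher and 3 lower, so that 76.9% were changed beside 43.5% of all genes. SLC7A11 and SLC3A2, which together form the cystine importer that feeds glutathione synthesis, had log2 fold changes of 1.43 and 0.94 (limma adjusted p = 6.0e-05 and 4.0e-05), and thioredoxin, TXN, the substrate of TXNRD1, of 0.85 (limma adjusted p = 1.2e-05). GGT1 was lower, by 1.41 on the log2 scale (log2 fold change -1.41, limma adjusted p = 0.0087). In knockdown SLC7A11 was at 0.22 with an interval from -0.24 to 0.69 (limma adjusted p = 0.52).

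Of 6 NADPH-producing enzymes, 0 were higher in knockdown with limma (2 at an unadjusted p under 0.05, 0 with edgeR and 1 with DESeq2). TALDO1 was lower (log2 fold change -0.38, limma adjusted p = 0.018, lost without shControl replicate 1, shControl replicate 3 or GALNT7 KD replicate 1). In overexpression 5 of the 6 were higher and 0 lower (0 also with edgeR, DESeq2 and an unadjusted p under 0.05), with malic enzyme ME1 at 1.29 (limma adjusted p = 1.3e-05). The changed share of these enzymes was 16.7% in knockdown and 83.3% in overexpression, beside 9.06% and 43.5% of all genes. Of 8 genes of heme and iron handling, the process HMOX1 belongs to, 5 were higher in knockdown and 0 were lower by limma, edgeR, DESeq2 or an unadjusted p under 0.05. They included BLVRA and BLVRB, which reduce biliverdin to bilirubin (log2 fold changes 1.11 and 0.67, limma adjusted p = 0.013 and 0.0084). The BLVRA call was lost without shControl replicate 3 or GALNT7 KD replicate 1, and the count of 5 was 3 without either of these or shControl replicate 1. The 5 were 62.5% of the list, beside 9.06% of all genes. In overexpression 4 of the 8 were higher and 2 lower, so that 75% were changed beside 43.5% of all genes. The largest changes there were rises of ABCB6 and FECH, from means of 541 and 868 normalised counts to 1159 and 1790. There the ferritin light chain FTL rose and the heavy chain FTH1 fell, with log2 fold changes of 0.41 and -0.62 (limma adjusted p = 9.0e-05 and 7.6e-06), whereas in knockdown both were higher, at 0.23 and 0.35 (limma adjusted p = 0.013 and 0.0032, FTL lost without shControl replicate 1).

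The list of detoxification and export genes also held other targets, OSGIN1, PIR, TRIM16, TRIM16L and NR0B1, so it is broader than its name. Of its 13 genes tested in knockdown, 6 were higher with limma, and 0 were lower by limma, edgeR, DESeq2 or an unadjusted p under 0.05. The export pump ABCC2 was at a log2 fold change of 0.77 (limma adjusted p = 0.016, lost without shControl replicate 1, GALNT7 KD replicate 1 or GALNT7 KD replicate 2). The 6 were 46.2% of the list, beside 9.06% of all genes. All 6 calls were lost without shControl replicate 1, and 1 to 3 genes were called higher without shControl replicate 2 or 3 or GALNT7 KD replicate 1 or 2. In overexpression 8 of 14 were higher and 2 lower, so that 71.4% were changed beside 43.5% of all genes. The 8 higher included OSGIN1, PIR, TRIM16, TRIM16L and NR0B1, and with 1 library left out the count of 8 was 6 or 7. PIR rose by a log2 fold change of 1.42 and NR0B1 by 1.56, whereas the export pump ABCC3 had the largest fall of this list, at -1.80 (limma adjusted p = 4.8e-05, 0.0066 and 3.2e-06).

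The aldo-keto reductases outside the members gave 0 of 7 changed genes in knockdown with limma, where 9.06% of all genes were changed. The count was 0 also with edgeR, DESeq2 and an unadjusted p under 0.05. Several of these genes were low, with AKR1B1 and AKR1B15 at means of 7.66 and 9.07 normalised counts in shControl, beside 666 for AKR1A1. A change in such low genes could have been missed. In overexpression 1 of 7 was higher and 2 were lower, 42.9% beside 43.5% of all genes. AKR1B1, aldose reductase, fell from a mean of 12173 to 5582 normalised counts (log2 fold change -1.13, limma adjusted p = 6.4e-06), and AKR1B15 had a log2 fold change of -1.35 (limma adjusted p = 0.019, lost without OE control replicate 1, OE control replicate 3, GALNT7 OE replicate 1 or GALNT7 OE replicate 2). AKR1A1 was higher at 0.26 (limma adjusted p = 0.017, lost without OE control replicate 2 or 3). Of 19 antioxidant enzymes and factors not classed as NRF2 targets, 5 were higher and 1 was lower in knockdown, and 7 of 18 were higher and 4 lower in overexpression. The shares changed were 31.6% and 61.1%, beside 9.06% and 43.5% of all genes. Of the 5 higher in knockdown only PRDX5 was still called without GALNT7 KD replicate 1. GLRX, glutaredoxin, was the largest rise there, at 0.92 on the log2 scale (limma adjusted p = 0.013, lost without shControl replicate 1 or GALNT7 KD replicate 1). The largest falls in this list were those of TXNIP, the inhibitor of thioredoxin, whose log2 fold change was -0.73 in knockdown and reached -4.24 in overexpression (limma adjusted p = 4.4e-04 and 1.1e-07), and of mitochondrial SOD2, at -3.58 in overexpression (limma adjusted p = 2.3e-08). Of 13 androgen-metabolising enzymes beside AKR1C3, 2 were higher and 1 was lower in knockdown, 23.1% beside 9.06% of all genes. In overexpression 4 of the 13 were higher and 2 lower, where 46.2% were thus changed beside 43.5% of all genes. Neither of the 2 higher in knockdown was called when any 1 of the shControl libraries, or GALNT7 KD replicate 1 or 2, was left out. In overexpression the 4 became 2 without OE control replicate 3 or GALNT7 OE replicate 2. HSD17B10 was higher in both, at 0.27 and 0.55 (limma adjusted p = 0.031 and 6.7e-04), with the knockdown call lost whichever library was left out.

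**Figure D4:**
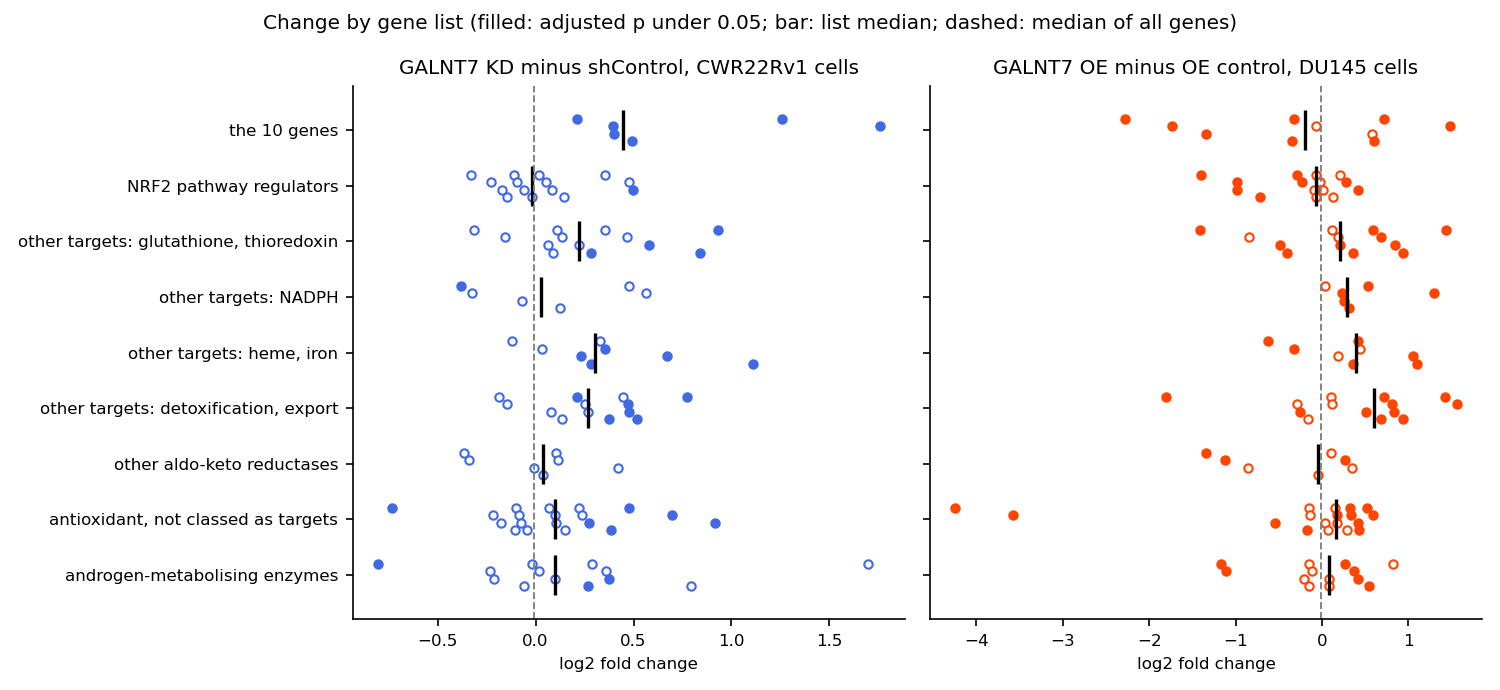
Log2 fold change (horizontal axis) of every gene tested in each list (rows), for knockdown (left) and overexpression (right), with a separate scale for each. Filled points passed an adjusted p of 0.05, black bars are list medians and the dashed line is the median of all genes. The bar of the members, drawn over 6 genes on the left and 10 on the right, lies at 0.45 and at -0.19. The bar of the detoxification and export list, which also holds OSGIN1, PIR, TRIM16, TRIM16L and NR0B1, lies furthest to the right in overexpression, at 0.60.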

How the data were processed

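The authors deposited a signal per gene and library, normalised counts for 59424 genes named by Ensembl identifier, in 1 table per cell line. The submitters' processing notes name FastQC, Salmon, DESeq2, R 3.5.3 and the hg38 genome; the annotation release is not given in the sources used here. Every value was a whole multiple of its library's smallest value (100% of values, tolerance 0.01), which gave the reads behind it. A library's scaling moves all of its values together, and an estimate by Salmon can divide reads between near-identical transcripts.

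Gene names, positions and transcript lengths came from GENCODE 29, which held 94.4% of the identifiers, and promoters from RefSeq. Each cell line was tested alone with limma 3.58.1 in R 4.3.3 (eBayes with trend, no covariate) on the log2 of the deposited value plus 1, over genes averaging at least 5 across 6 libraries, with Benjamini-Hochberg adjustment over all genes tested and a threshold of 0.05. Fold changes on this scale understate those of low genes. Intervals are 95% intervals from limma, and permutation tests were two-sided and exact. On the recovered reads edgeR 4.0.16 called 1546 genes in knockdown and 8042 in overexpression, and DESeq2 1.42.0 called 2642 and 8061. The procedure was tested on simulated data.

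The members and lists were chosen with earlier results of these data known. Beside the members and GALNT7, the genes eligible to be named were up to 4 called genes of largest change per list and comparison, and NFE2L2, KEAP1, BACH1, MAFG, SQSTM1, SLC7A11 and AKR1B1; some other eligible genes are not reported here. FTL in knockdown and the ratio of GCLC to GCLM were chosen after their values were seen. OSGIN1 and TRIM16 were named only to give the make-up of a list. HSD17B8, a listed androgen-metabolising enzyme, matched no identifier. Replicate pairs differed by more than sampling noise (mean chi-square per gene 8.77 to 23.7), so no pair was treated as duplicates of 1 library; this does not show that the libraries are independent. Alternatives were pseudocounts of 0.5 and 5, no filter and a mean of at least 20, rescaling to the 75th percentile, quantile normalisation, eBayes without trend, the replicate block, the count tests and each library left out in turn. No columns were left unused.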

Additional observations from a re-analysis of the deposited data

How the results depend on the processing

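The count of genes changed in knockdown was 1623 and depended on the fit: eBayes without trend gave 996, the replicate block 1002 and DESeq2 2642, and leaving out 1 library gave 525 to 1332. The members called in knockdown were 3 to 5 with 1 library left out, and the fewest, 3, came without shControl replicate 1, shControl replicate 3 or GALNT7 KD replicate 1. HMOX1, NQO1 and SRXN1 kept their calls under every alternative run. GCLM was also not called by eBayes without trend (limma adjusted p = 0.065) or with the replicate block (limma adjusted p = 0.050), nor TXNRD1 without the filter (0.068), with 75th percentile rescaling (0.051), quantile normalisation (0.063), eBayes without trend (0.14) or the replicate block (0.082, all limma adjusted p). In overexpression the members kept their direction and side of the threshold in 159 of 160 alternative results, the exception being TXNRD1 under quantile normalisation. Against the median of all genes in place of that of chromosome 12, TXNRD1 stood at 0.22 in knockdown and -0.31 in overexpression. Among the other named genes, MAFG turned direction in overexpression, to -0.091 under 75th percentile rescaling and -0.086 under quantile normalisation, and to between -0.038 and 0.034 with 1 library left out. In knockdown MAFG ranged from -0.13 to 0.025 and BACH1 from -0.21 to 0.85 with 1 library left out. Of the other listed genes, 543 of 655 alternative results in knockdown and 972 of 1056 in overexpression kept direction and call. The summed AKR1C genes were under the filter in knockdown, so only the fit without it gave a value there (log2 fold change -0.83, limma adjusted p = 0.58). Leaving out 1 library moved the log2 change of the GCLC to GCLM ratio in overexpression between -1.86 and -1.81, an alternative chosen after seeing the data.

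Whether same-numbered libraries were paired is not settled. Their deviations from the group means correlated weakly, at -0.011 to 0.075 in knockdown and 0.016 to 0.043 in overexpression. Of the controls, 1 of 3 and 3 of 3 correlated best with their own number. With the replicate block 4 of the 6 members stayed called in knockdown and 8 of the 10 in overexpression. Depth limits the aldo-keto reductases in CWR22Rv1 cells, and 3 libraries per group limit every p.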
